A study of Mus musculus with 28 samples.

Results

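The genes for skeletal α-actin (Acta1), cardiac α-actin (Actc1), desmin (Des) and muscle creatine kinase (Ckm) were examined in 28 mouse ATAC-seq peak lists. ATAC-seq marks accessible chromatin by where a transposase inserts sequencing adapters. The loci were taken as fixed windows on the mm9 genome build, and every listed peak that overlapped a window was counted. The windows were chr8:126360000-126470000 for Acta1, chr2:113800000-113950000 for Actc1, chr1:75300000-75420000 for Des and chr7:19930000-20060000 for Ckm. Peaks of the libraries that overlapped were merged into regions, and a library had a region when it listed a peak in it. The windows held 86 of 255567 regions genome-wide, with 21 at Acta1, 21 at Actc1, 21 at Des and 23 at Ckm, numbered within each window in order of position.

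Sarcomeric actins form the thin filaments of striated muscle. Actc1 is the main sarcomeric actin of the heart and is also made by embryonic and newly formed skeletal muscle, while Acta1 is the main actin of mature skeletal fibres. Desmin is the muscle intermediate filament that links the contractile apparatus to the cell's edge, and it is made early in the muscle lineage. Creatine kinase M buffers ATP in contracting fibres and is a late differentiation gene. MyoD is a transcription factor of muscle commitment that binds E-boxes and can turn fibroblasts into muscle cells. Satellite cells are the Pax7-expressing stem cells of skeletal muscle.

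The MEF14 libraries came from mouse embryonic fibroblasts of E13.5 embryos. Per the labels' protocols the fibroblasts carried the reporter Pax7-nGFP, the transactivator Rosa-rtTA and the transgene Col1a1-tetO-MyoD, so that doxycycline turns on MyoD and cells with Pax7 promoter activity are marked by GFP. The groups were day 0 fibroblasts, cells labelled FRG at day 8, Dox+FRG cells at days 2, 4, 6 and 8, Dox cells at days 4 and 8, and, at days 8 and 10, a GFP-labelled group of Dox+FRG cells. FRG was read as forskolin, RepSox and the GSK3 inhibitor CHIR99021, which the protocols give at 5, 5 and 3 µM in the medium for induced progenitors, with bFGF at 10 ng/ml and doxycycline at 2 µg/ml. The protocols' medium for myotubes had the doxycycline and bFGF without those 3 compounds. The medium of cells given FRG alone is not described in the labels. Quiescent and activated satellite cells came from adult Pax7-nGFP mice of 10 to 12 weeks, with no MyoD transgene named for them. A further fibroblast line or batch, MEF10, was labelled MyoD+FRG or MN+FRG at day 6, and the labels define neither MEF10 nor MN. Each of the 14 groups had 2 libraries. Cultures without a GFP label are termed unsorted, but which cells went through a sorter is not stated.

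Nothing in the labels says that the libraries of a group were separate cultures, so p-values measure the spread between libraries, which may be technical. The tests treat the 2 libraries of a group as independent. The doxycycline comparison pools groups of different days and media on each side, so its spread is also one between conditions. Day and medium also differ between its sides. The lists held 37301 to 134997 peaks and no score, height or read number, so depth is unknown and a missing peak is not a closed site. FRG day 8 had the longest lists (134997 and 133267 peaks), Dox day 8 had 108663 and 130916, and Dox+FRG day 8 had 67026 and 50608. The list of MEF10 MyoD+FRG replicate 2 stood apart, with a median peak width of 722 bp against 61 to 205 bp in the other 27 lists and a widest peak of 202465 bp. Single peaks of it span several regions, so it was overlapped with the regions but did not help to define them. A peak missing from a list may mean fewer cells with the site open or a less open site per cell, and these cannot be told apart in bulk libraries. The labelled cell types were not checked against marker genes, because no annotation of the mm9 build was used here.

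The promoters of the 4 genes are shown because MyoD and the serum response factor, which binds CArG boxes, are known regulators of muscle genes. They are the 250 bases before each annotated start, from RefSeq on GRCm38.p6, 5′ to 3′ on the gene's strand. Capitals mark E-boxes (CANNTG) and CArG boxes. Which peak region, if any, covers each promoter was not determined here, since the peak positions are on another build.
Acta1: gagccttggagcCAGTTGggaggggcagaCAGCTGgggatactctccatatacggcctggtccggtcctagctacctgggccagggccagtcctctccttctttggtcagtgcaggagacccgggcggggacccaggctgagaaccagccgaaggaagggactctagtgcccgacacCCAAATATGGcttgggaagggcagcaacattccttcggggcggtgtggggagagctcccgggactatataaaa
Actc1: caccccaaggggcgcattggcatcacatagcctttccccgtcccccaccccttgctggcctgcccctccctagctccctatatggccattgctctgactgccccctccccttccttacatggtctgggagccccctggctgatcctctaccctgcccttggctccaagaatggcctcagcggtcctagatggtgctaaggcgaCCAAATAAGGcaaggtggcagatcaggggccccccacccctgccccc
Des: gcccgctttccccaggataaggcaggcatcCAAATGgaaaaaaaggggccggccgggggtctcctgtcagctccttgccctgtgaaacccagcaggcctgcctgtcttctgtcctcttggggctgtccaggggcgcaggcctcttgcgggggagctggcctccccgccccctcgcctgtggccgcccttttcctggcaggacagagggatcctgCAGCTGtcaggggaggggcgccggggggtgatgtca
Ckm: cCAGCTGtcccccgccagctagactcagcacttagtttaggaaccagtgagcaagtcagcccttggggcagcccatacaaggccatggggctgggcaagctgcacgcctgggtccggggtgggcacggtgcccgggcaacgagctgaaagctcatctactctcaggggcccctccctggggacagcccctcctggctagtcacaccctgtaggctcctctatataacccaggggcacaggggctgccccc

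E-boxes were found in 3 of the 4 promoters, against 66.2% of 32851 RefSeq promoters of the same length. Acta1, Des and Ckm each held the E-box CAGCTG, a form that MyoD is known to bind, which 13.0% of all promoters held. In Acta1 it lay 221 to 216 bases before the start, in Des 36 to 31 and in Ckm 249 to 244, at the far end of the window. Actc1 held no E-box in these 250 bases. CArG boxes were found in the actin promoters and not in Des or Ckm, and 1.47% of all promoters held one. The Acta1 copy, ccaaatatgg, lay 73 to 64 bases before the start, and the Actc1 copy, ccaaataagg, 47 to 38. The TEAD-type motif CATTCC was in Acta1 alone (12.6% of all promoters), TATAAA in Acta1 alone (12.4%), and GGGCGG in Acta1 and Des (32.7%). MEF2 sites (2.92%) and the AP-1 motif TGANTCA (6.75%) were in none of the 4. Both strands were searched, CAGCTG is itself an E-box, and a match is a match of letters only.

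In the RefSeq gene order Acta1 lies between Ccsap and Nup133, Actc1 between Gjd2 and Aqr, Des between Dnpep and Speg, and Ckm between Klc3 and Mark4. Speg, next to Des, encodes a striated muscle kinase. A peak in a window was not assigned to the gene that names the window.

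Regions of the 4 windows were found in more libraries than regions at large. Of the 86 regions, 9 (10.5%) had a peak in all 28 libraries, against 5.42% of all regions, and 12 (14.0%) in a single library, against 21.9%. The median region of the windows was found in 10 libraries and the median region of the genome in 4. Window regions were also wider, with a median of 290 bp against 200 bp. The genome's regions were not matched to them for width or for nearness to genes. The regions found everywhere were not spread evenly over the loci. Ckm had 5, at chr7:19929947-19930866, chr7:19944737-19947390, chr7:19967164-19967839, chr7:20006542-20006931 and chr7:20043411-20044547 (Ckm regions 1, 2, 6, 14 and 19). Acta1 had 2, at chr8:126382724-126384473 and chr8:126408718-126408954 (regions 4 and 11). Des had 2, at chr1:75313543-75314629 and chr1:75395375-75397521 (regions 1 and 19). Actc1 had none, though Actc1 region 11 was in 27 libraries, all but quiescent satellite cell replicate 2. That library listed 0 peaks in the Actc1 window. The day 0 fibroblasts listed fewest peaks at Actc1 of the 4 windows.

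**Figure D1:**
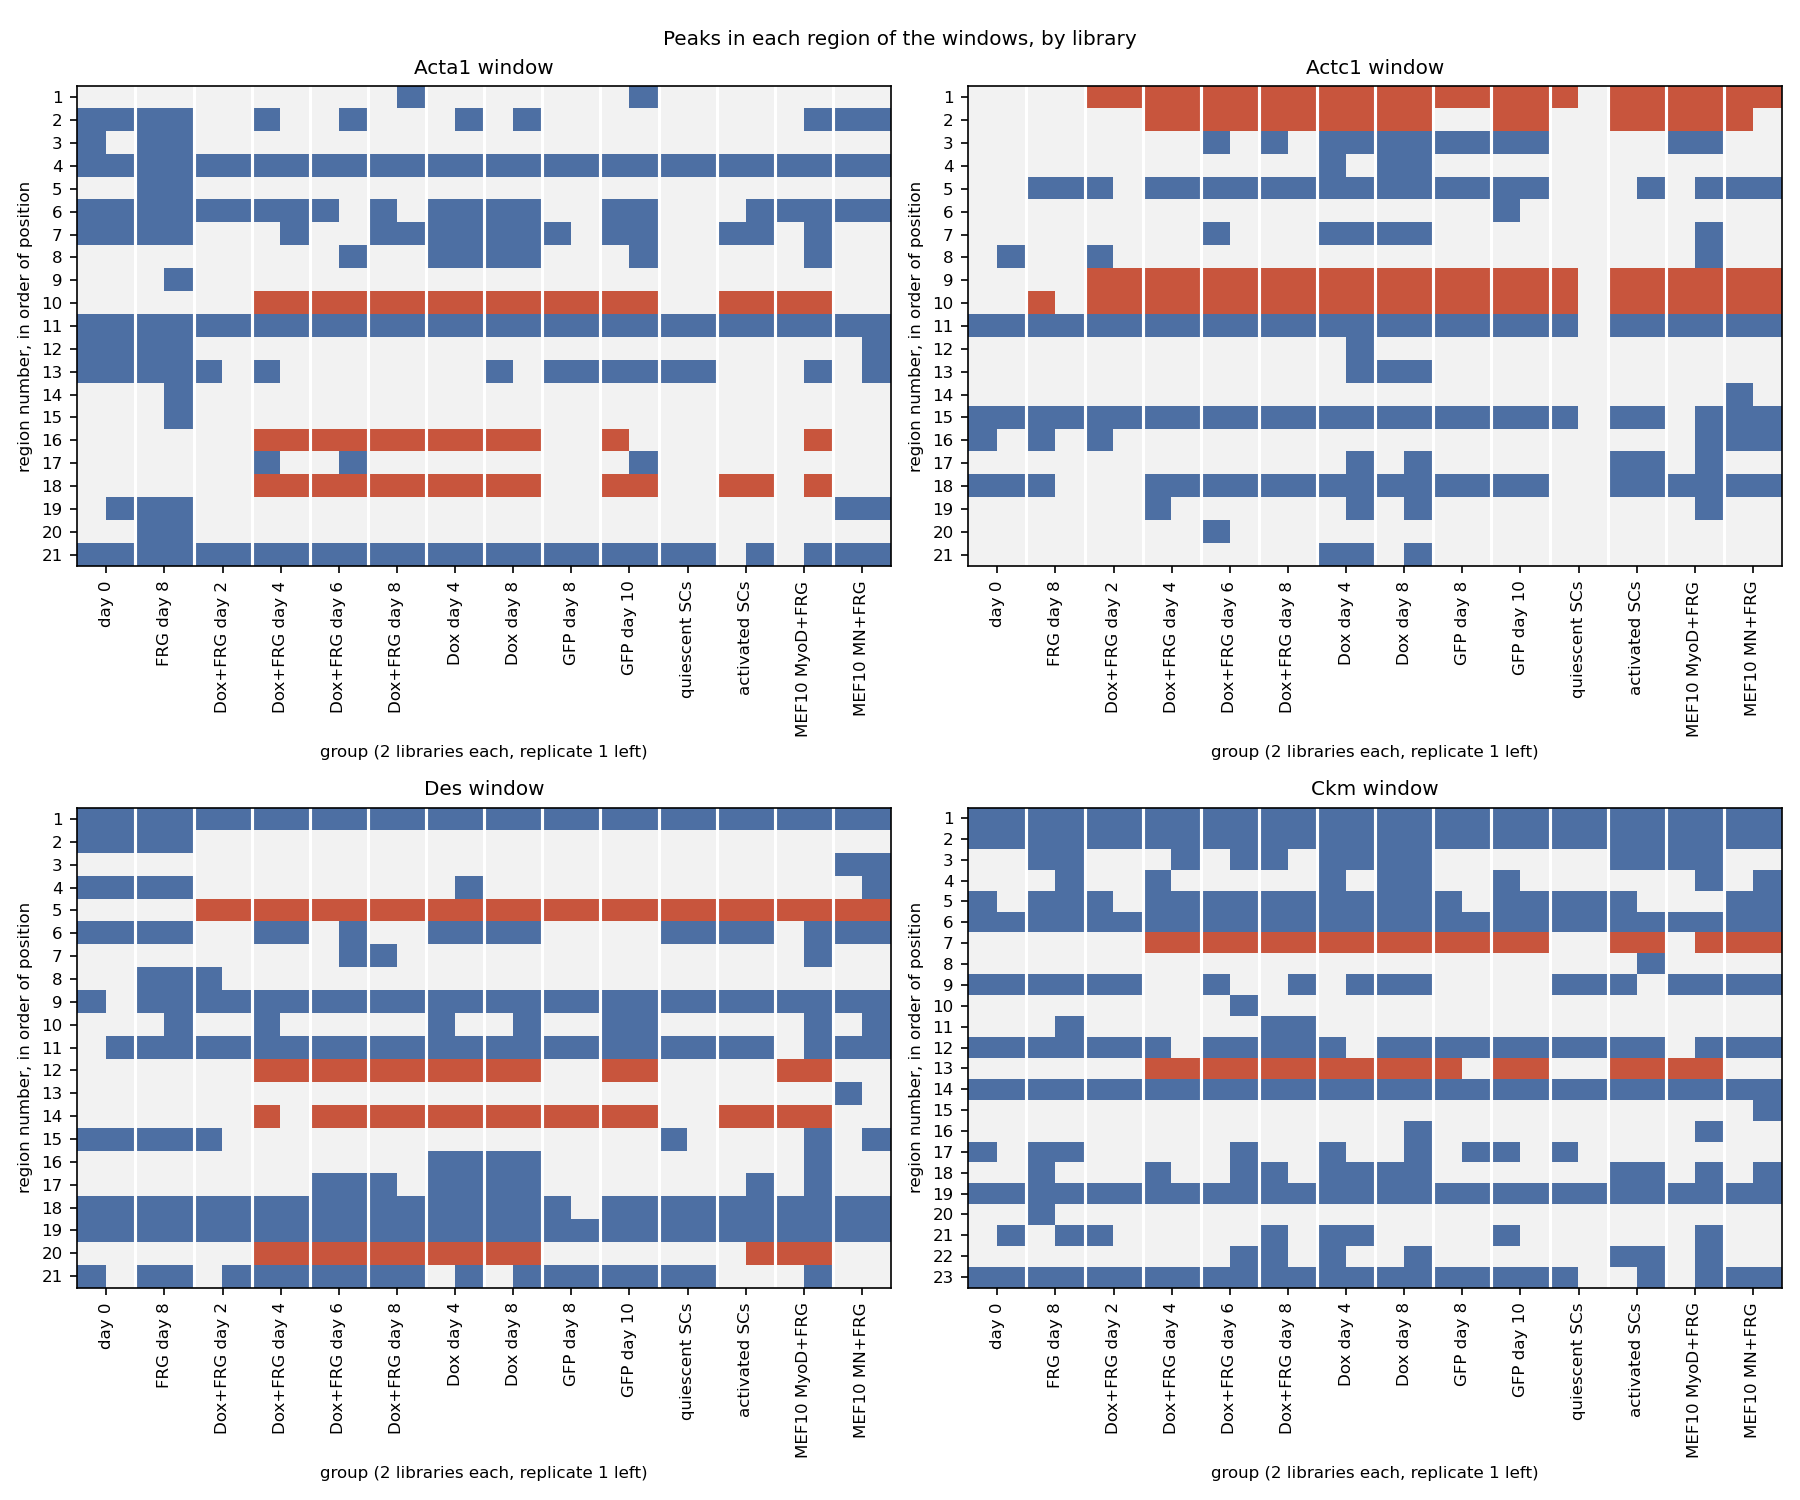
Regions (rows, in order of position) of each window against the 28 libraries (columns, 2 per group, white lines between groups). A coloured cell is a region with a peak. Orange rows are the 13 regions with a peak more often in the doxycycline libraries at an unadjusted Fisher p under 0.05, and other regions are blue. The orange rows are empty in both day 0 libraries and filled in nearly all doxycycline libraries from day 4.

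MyoD induction was compared over 12 unsorted MEF14 libraries given doxycycline and 4 MEF14 libraries not given it (day 0 and FRG day 8). At the 4 loci 3 regions passed Fisher's exact test with an adjusted p of 0.0425 as more often listed with doxycycline, and 2 as less often. All 5 showed the most extreme split possible, 12 of 12 against 0 of 4 or the reverse. Higher were Actc1 region 1 (chr2:113806386-113806777), Actc1 region 9 (chr2:113878470-113880138) and Des region 5 (chr1:75340922-75341834). Lower were Acta1 region 12 (chr8:126411392-126412156) and Des region 2 (chr1:75334573-75334953). No Ckm region passed in either direction. Genome-wide 0.434% of regions were called higher and 0.86% lower by the same rule. Since only the extreme split can pass, leaving out any 1 of 13 of the 16 libraries left no region past the adjusted threshold, and leaving out either Dox+FRG day 2 library or Dox day 8 replicate 2 left 3 higher. No region of the loci or of the genome passed with every list drawn at random to 37301 peaks (equal list lengths). Nor did any pass with only those peaks kept that exceeded their list's usual width (extended peaks). With day 0 alone or FRG day 8 alone as control, again none passed at the loci or genome-wide. Against day 0 alone even the extreme split of Actc1 region 1 gave a Fisher's exact p of 0.011 (adjusted p = 0.403). With regions merged from all 28 lists, 1 region of the loci passed as higher and 2 as lower, against 977 and 2136 regions genome-wide. An unadjusted Fisher p under 0.05 was met by 13 regions as higher (15.1%, against 3.56% of all regions) and 7 as lower (8.14%, against 5.04%). That higher count was 13 with each of the 16 libraries left out in turn. It was 9 with regions merged from all 28 lists, 5 with day 0 alone as control, 3 with FRG day 8 alone, 1 with extended peaks and 0 at equal list lengths. The counts against a single control group cannot be set beside the 13, because fewer control libraries leave less room for a small p. Acta1 regions 10, 16 and 18 kept a difference of 83.3 percentage points against either group alone. This had to hold, because they were absent from all 4 libraries without doxycycline. With either group alone, these regions no longer met an unadjusted Fisher p under 0.05. The counts of 9, 5, 3, 1 and 0 are given without a genome-wide share, so a drop cannot be called particular to the loci. Among regions listed in 3 to 14 of the 16 libraries, a filter chosen after the data were seen, 26.5% of 49 regions at the loci and 8.87% of 102659 genome-wide were higher in this sense, and 14.3% and 12.6% were lower.

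Actc1 showed the largest difference in number of peaks. Day 0 libraries listed 4 and 4 peaks in the Actc1 window, and FRG day 8 libraries 7 and 3. Dox+FRG libraries listed 8 and 5 at day 2, 9 and 9 at day 4, 12 and 9 at day 6 and 9 and 9 at day 8. Both Dox days stood highest, with 14 and 17 peaks at day 4 and 14 and 17 at day 8. The mean was 11.0 ± 3.77 (SD, n = 12) with doxycycline and 4.5 ± 1.73 (SD, n = 4) without, a difference of 6.50. The groups overlapped in FRG day 8 replicate 1 and Dox+FRG day 2 replicate 2. The exact permutation test gave p = 0.00934, two-sided, and 0.0923 after Benjamini-Hochberg adjustment over the 12 window tests, so the count did not pass. It passed without either Dox+FRG library of day 2, 4 or 8 or without Dox+FRG day 6 replicate 2 (differences of 6.68 to 7.05, exact permutation test, adjusted p of 0.0352 to 0.044), each left out alone. The Actc1 difference also passed when the listed peaks were put per 10000 peaks of the list (difference 1.00, exact permutation test, adjusted p = 0.00659), as kilobases covered by peaks (2.63 kb, adjusted p = 0.033) and at equal list lengths (3.83, adjusted p = 0.0462). It did not pass with extended peaks (2.00, adjusted p = 0.24), day 0 alone (7.00, adjusted p = 0.1) or FRG day 8 alone (adjusted p = 0.171), each by the exact permutation test.

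Some of the regions behind that count were listed from day 2, some later, and some mostly with Dox alone. Actc1 regions 4 and 13 were each listed in 3 libraries, all of Dox alone. Actc1 region 7 was listed in 6, among them all 4 with Dox alone. Actc1 regions 1 and 9, 72.7 kb apart, had the same pattern in 28 of 28 libraries. Both were absent at day 0 and FRG day 8, present in both libraries of every doxycycline group from day 2, and present in GFP cells, activated satellite cells, both MEF10 groups and quiescent satellite cell replicate 1. Actc1 region 10 (chr2:113883169-113883573) differed from them in 1 library, FRG day 8 replicate 1, which listed it. Elsewhere in the genome 69 regions had the pattern of region 1 exactly. Actc1 region 2 (chr2:113810671-113811836) was absent in both day 2 libraries and present in both libraries of all later unsorted doxycycline groups (10 of 12 against 0 of 4, Fisher's exact p = 0.00824, adjusted p = 0.133). It was also absent from both GFP day 8 libraries and present in both of GFP day 10. Actc1 region 5 (chr2:113837584-113839409) was listed in both FRG day 8 libraries, neither day 0 library and 11 of 12 doxycycline libraries. Actc1 region 3 (chr2:113822745-113823529) was in 6 of 12 doxycycline libraries, among them all 4 with Dox alone, and in all 4 GFP libraries.

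At Des the regions moved in both directions. Des region 5 was found in 24 libraries, all except the 4 without doxycycline, and thus in quiescent satellite cells as well. It matched Actc1 region 1 in 27 of 28 libraries, the exception being quiescent satellite cell replicate 2, and 246 regions elsewhere had its exact pattern. Des region 12 (chr1:75371642-75372373), Des region 14 (chr1:75375925-75377618) and Des region 20 (chr1:75403786-75405167) were absent at days 0 and 2. Regions 12 and 20 were in both libraries of every unsorted doxycycline group from day 4 (10 of 12 against 0 of 4), and region 14 in all of these but Dox+FRG day 4 replicate 2. Region 12 was in no satellite cell library. Des region 2 was found in the 4 libraries without doxycycline and in no other library of the 28. Des region 4 (chr1:75339539-75339720), whose end lies within 2 kb of the start of region 5, was in those 4, Dox day 4 replicate 2 and MEF10 MN+FRG replicate 2. Des region 15 (chr1:75378238-75379566) was in those 4, Dox+FRG day 2 replicate 1 and 3 libraries outside the test. Regions 4 and 15 were each in 1 of 12 doxycycline libraries and 4 of 4 without (Fisher's exact p = 0.00275, adjusted p = 0.11).

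The number of peaks at Des did not pass the test between these groups. Day 0 listed 9 and 8, FRG day 8 listed 12 and 13, and Dox+FRG listed 8 and 7, 12 and 10, 11 and 13, and 12 and 10 at days 2, 4, 6 and 8. Dox listed 15 and 14 at day 4 and 14 and 16 at day 8. The means were 11.8 ± 2.76 (SD, n = 12) and 10.5 ± 2.38 (SD, n = 4), with p = 0.462 by the exact permutation test and an adjusted p of 0.555. Per 10000 listed peaks the difference was 0.55 and passed (exact permutation test, adjusted p = 0.00989). The Des difference did not pass at equal list lengths (2.83), as kilobases covered by peaks (0.40 kb) or with extended peaks (-0.42). Against FRG day 8 alone the difference in counts turned to -0.67.

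Acta1 listed fewer peaks with doxycycline than without, short of the threshold after adjustment and with nearly equal values once list length was taken into account. Day 0 listed 9 and 9 peaks and FRG day 8 listed 12 and 15, the highest of any group. Dox+FRG listed 5 and 4 at day 2, 10 and 8 at day 4, 7 and 9 at day 6 and 8 and 8 at day 8, and Dox 9 and 10 at day 4 and 10 and 10 at day 8. The means were 8.17 ± 1.99 (SD, n = 12) and 11.2 ± 2.87 (SD, n = 4), a difference of -3.08 with p = 0.0385 by the exact permutation test and an adjusted p of 0.0923. FRG day 8 had the longest lists of these groups and Dox+FRG day 2 replicate 2 the shortest. With every list drawn at random to 37301 peaks the Acta1 difference was -0.25, and per 10000 listed peaks it was -0.02. It was -0.83 against day 0 alone, -5.33 against FRG day 8 alone and -1.83 without FRG day 8 replicate 2.

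The window held regions with opposite patterns side by side. Acta1 region 12 was in all 4 libraries without doxycycline and in MEF10 MN+FRG replicate 2. Elsewhere 184 regions had this pattern exactly. Acta1 region 10 (chr8:126406460-126407351), centred 4.9 kb to its left, was absent in those 4 libraries and both day 2 libraries and present in the other 10 doxycycline libraries. Acta1 region 16 (chr8:126418660-126420171) and Acta1 region 18 (chr8:126431555-126431782), centred 7.6 and 19.9 kb to its right, had the same 10 against 0. Region 16 was the most restricted of them outside the test, in GFP day 10 replicate 1 and MEF10 MyoD+FRG replicate 2 and in no satellite cell library. Region 10 was in all GFP and both activated satellite cell libraries and in neither quiescent one. Acta1 region 13 (chr8:126415276-126415650) was in 4 of 4 libraries without doxycycline, 3 of 12 with it, and in all GFP and quiescent satellite cell libraries (Fisher's exact p = 0.0192, adjusted p = 0.222). Acta1 region 19 (chr8:126436264-126436453) was in 3 of 4 libraries without doxycycline, 0 of 12 with it, and both MEF10 MN+FRG libraries (Fisher's exact p = 0.00714, adjusted p = 0.133).

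At Ckm no region passed the adjusted test, and neither did the number of peaks. Day 0 listed 10 and 9 peaks, FRG day 8 listed 13 and 14, and Dox+FRG 10 and 8, 12 and 10, 11 and 16, and 15 and 13 at days 2, 4, 6 and 8. Dox listed 17 and 14 at day 4 and 15 and 18 at day 8. The means were 13.2 ± 3.11 (SD, n = 12) and 11.5 ± 2.38 (SD, n = 4), with p = 0.346 by the exact permutation test and an adjusted p of 0.462. Per 10000 listed peaks the difference of 0.65 passed (exact permutation test, adjusted p = 0.0286). The Ckm difference did not pass at equal list lengths (2.50), as kilobases covered by peaks (0.71 kb) or with extended peaks (-0.75). Against FRG day 8 alone the difference in counts was -0.25. Ckm region 7 (chr7:19974006-19974557) and Ckm region 13 (chr7:19995142-19997482), centred 22.0 kb apart, were absent in all libraries without doxycycline and at day 2, and present in the other 10 doxycycline libraries (Fisher's exact p = 0.00824, adjusted p = 0.133). Both were in activated and neither in quiescent satellite cells. Region 7 was in both MEF10 MN+FRG libraries, and region 13 in neither.

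**Figure D2:**
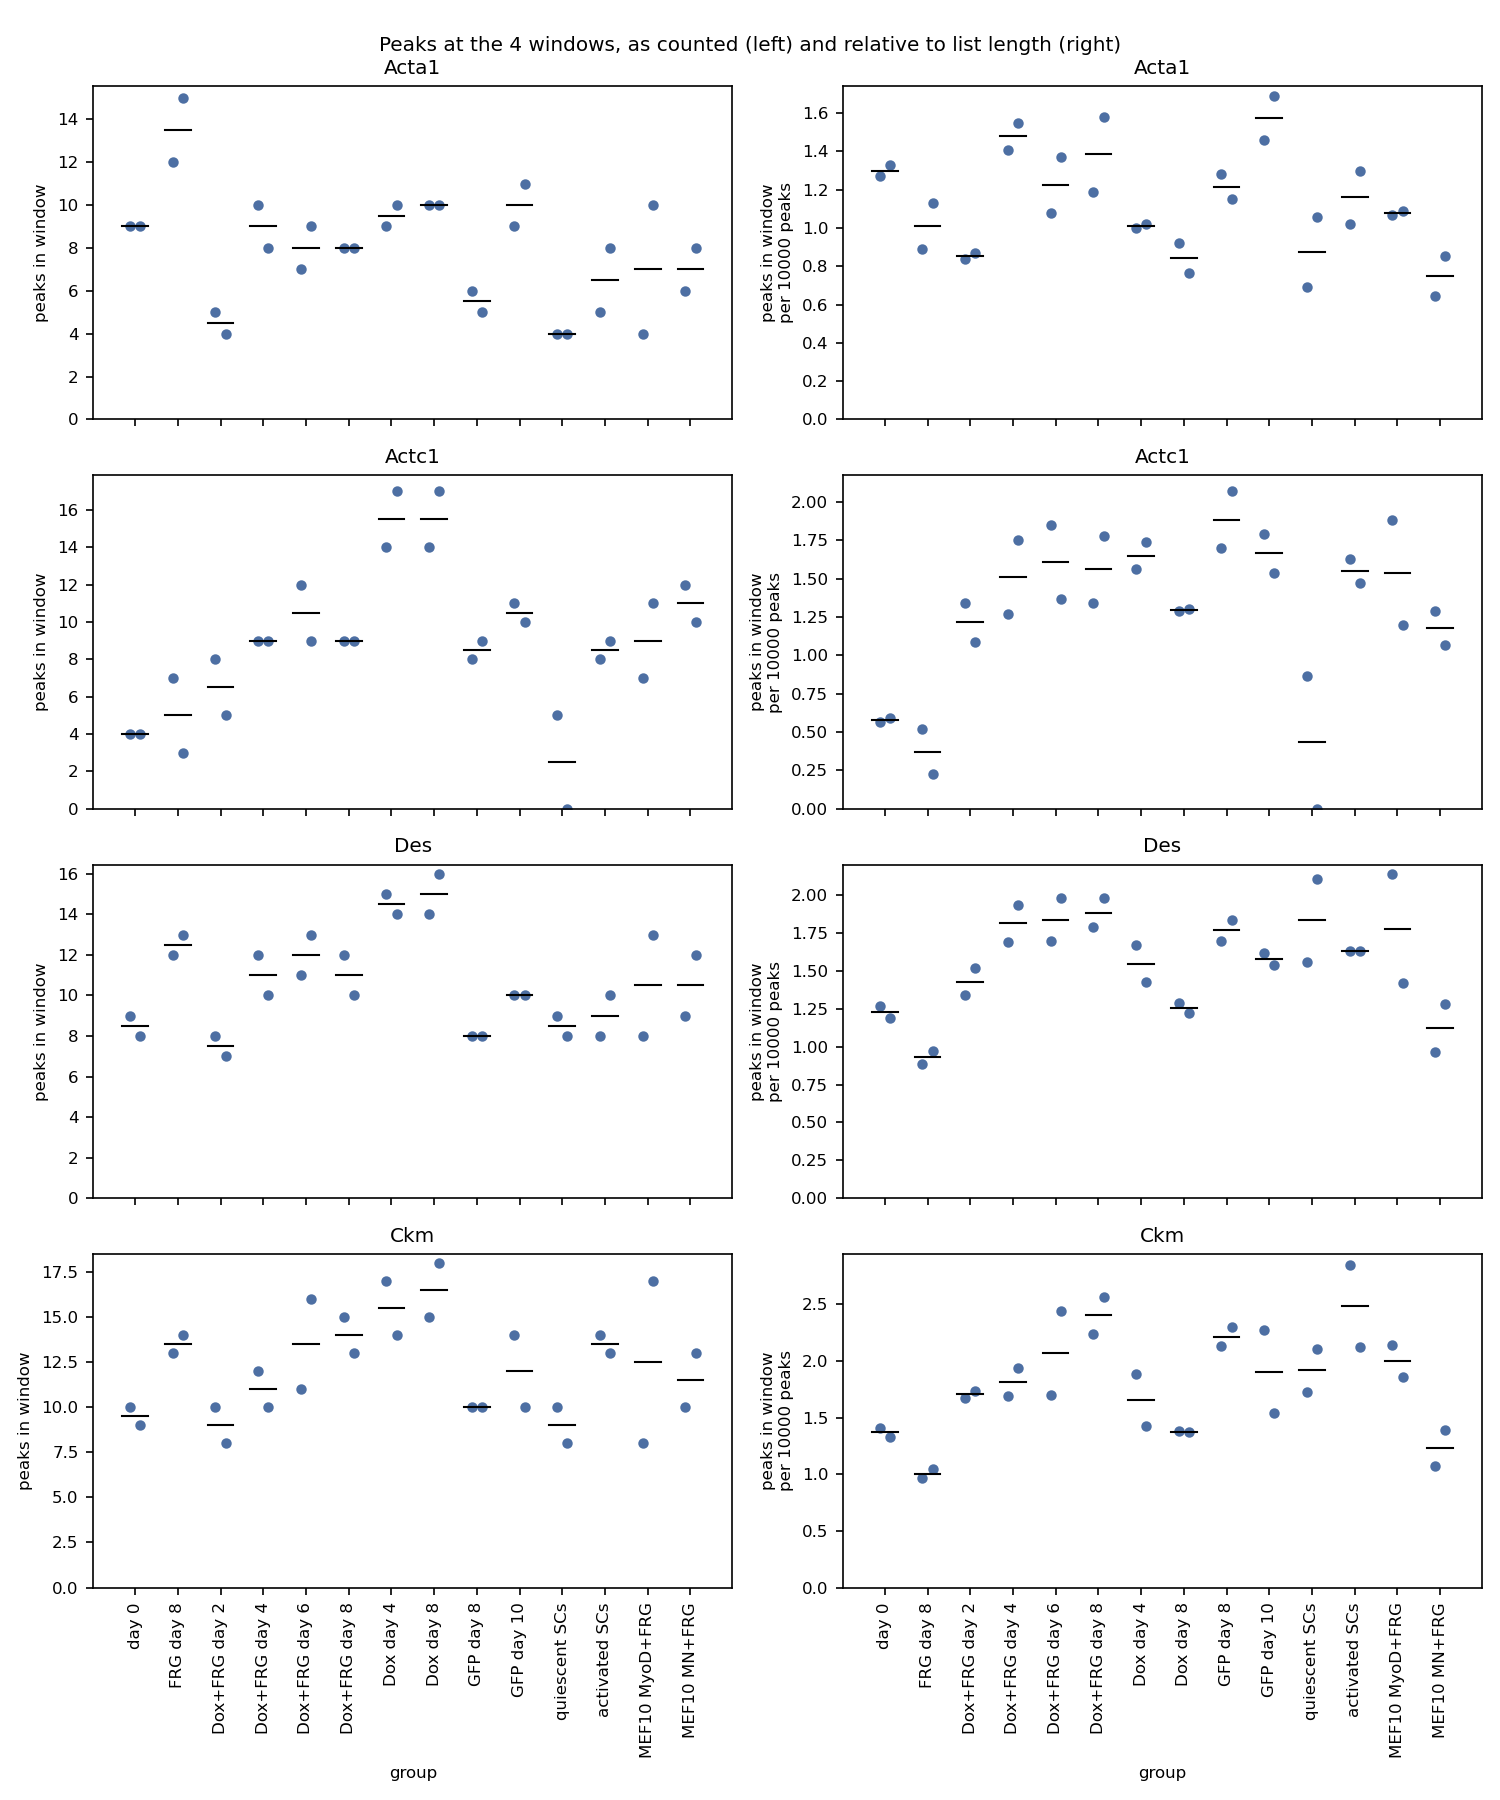
Peaks in each window by library, as counted (left) and per 10000 peaks of the same list (right). Points are libraries, replicate 1 to the left, and lines are group means of 2. At Actc1 the Dox libraries (14 and 17 on both days) lie above all others as counted, and per 10000 peaks they lie among the Dox+FRG libraries.

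The order in time differed between regions of the same window. Of the 13 regions more often listed with doxycycline, 4 were listed at day 2 in each of the 2 libraries, and these were Actc1 regions 1, 9 and 10 and Des region 5. None of the 3 Acta1 or 2 Ckm regions was listed at day 2. At day 4 replicate 1 listed 13 of 13 and replicate 2 listed 12, without Des region 14. At days 6 and 8, and in all Dox libraries, 13 of 13 were listed. The day 2 shares, 30.8% in both libraries, lay beside 34.1% and 21.4% over the 9109 regions of the genome chosen in the same way. The test that chose the 13 used these libraries, so their order within doxycycline is a description.

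Libraries that the choice did not use gave a mixed picture. GFP day 8 libraries listed 8 and 7 of the 13 (61.5% and 53.8%; genome set 52.1% and 48.4%), and both lacked Acta1 regions 16 and 18, Actc1 region 2 and Des regions 12 and 20. GFP day 10 libraries listed 12 and 11 (92.3% and 84.6%; genome set 65.5% and 67.3%) and both lacked Des region 20. Activated satellite cells listed 10 and 11 (76.9% and 84.6%; genome set 58.1% and 67.5%), lacking Acta1 region 16 and Des region 12 in both. Quiescent satellite cells listed 4 and 1 (30.8% and 7.69%; genome set 27.2% and 17.4%). The 4 of replicate 1 were the same Actc1 and Des regions that were listed at day 2. MEF10 MyoD+FRG listed 10 and 13 (76.9% and 100%; genome set 49.0% and 93.4%), the 13 from the list with very wide peaks. MEF10 MN+FRG listed 6 and 5 (46.2% and 38.5%; genome set 34.2% and 34.6%), among them Actc1 regions 1, 9 and 10, Des region 5 and Ckm region 7 in both. None of these shares was tested between the loci and the genome.

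**Figure D3:**
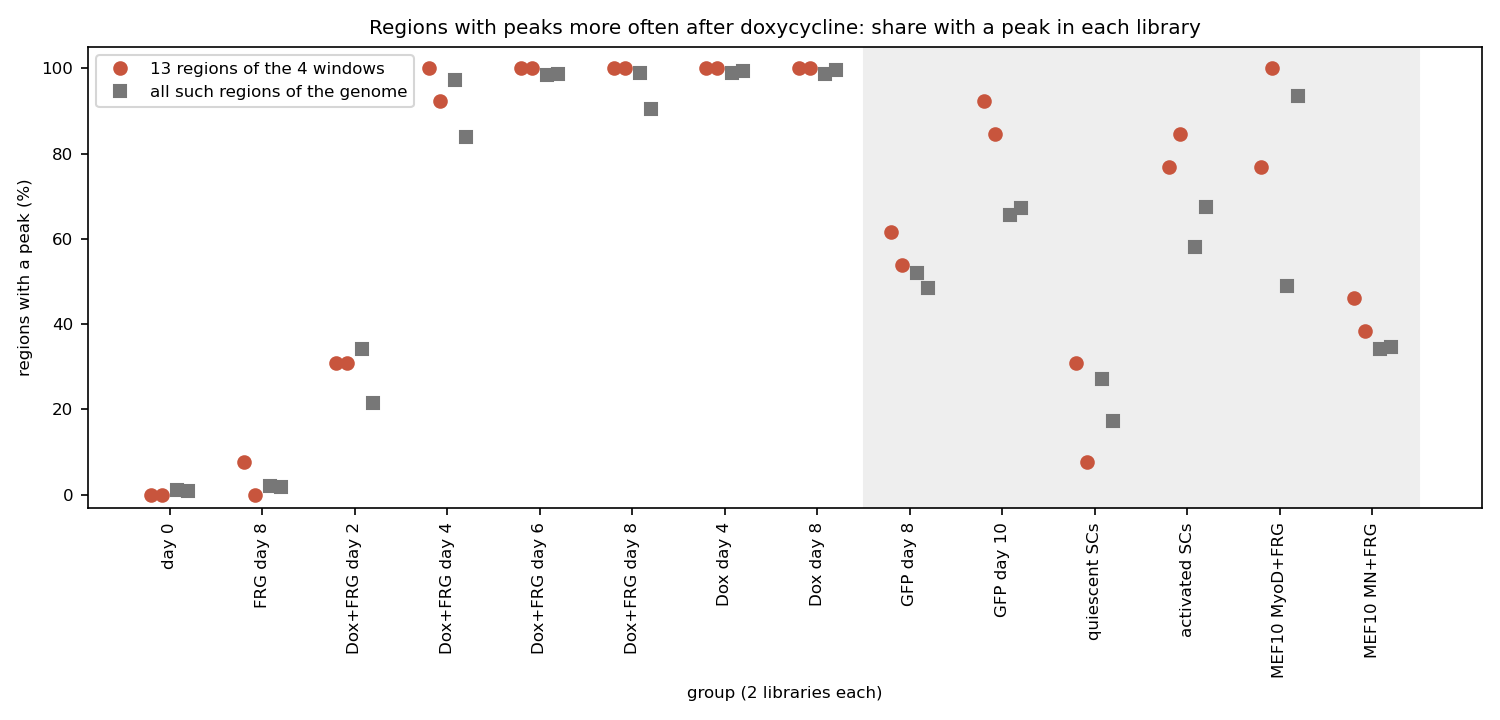
Share of regions with a peak (%) in each library, for the 13 regions of the windows (circles) and the 9109 regions of the genome chosen by the same rule (squares). The grey field holds the libraries that the choice did not use. There the shares at the loci run from 7.69% in a quiescent satellite cell library to 100% in MEF10 MyoD+FRG replicate 2.

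Comparisons of 2 libraries with 2 allow no exact p under 1 in 3, so regions are given as gained (both libraries of the first group, neither of the second) or lost (the reverse), out of regions listed in any of the 4 libraries, with the genome's share beside them. From day 0 to Dox+FRG day 8 the loci gained 15 of 58 regions (25.9%; genome 14.5%) and lost 7 (12.1%; genome 21.9%). The gained regions were 5 at Actc1, 4 at Des, 3 at Acta1 and 3 at Ckm, and the lost ones 4 at Des and 3 at Acta1. From day 0 to Dox day 8 they gained 24 of 66 (36.4%; genome 29.3%), 9 of them at Actc1, and lost 4 (6.06%; genome 4.84%). These comparisons share the day 0 libraries. From day 0 to FRG day 8 they gained 5 of 50 (10.0%; genome 33.1%) and lost none (0%; genome 3.48%). Those 5 were Acta1 regions 5 and 20, Actc1 region 5, Des region 8 and Ckm region 3. With 1 library left out the rule is looser, so a count can only stay or rise. Leaving out FRG day 8 replicate 1 gave 11 gained (23.4%, genome 46.2%) and 1 lost (2.13%, genome 4.59%). Leaving out FRG day 8 replicate 2 gave 8 gained (18.2%, genome 46.6%). Leaving out day 0 replicate 1 gave 10 gained (20.0%, genome 38.4%) and 1 lost (2.0%, genome 5.21%). Without day 0 replicate 1 the 4 lost in Dox day 8 became 7 (10.9%, genome 7.38%). At equal list lengths Dox+FRG day 8 gained 9 of 50 (18.0%; genome 10.8%) and lost 3 (6.0%; genome 10.1%). The balance turned there for Dox day 8, with 5 of 51 gained (9.8%; genome 5.88%) and 6 lost (11.8%; genome 9.61%), and for FRG day 8, with 1 of 36 gained (2.78%; genome 5.35%) and 4 lost (11.1%; genome 9.74%).

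Of 26 regions at the loci that both day 0 libraries listed, both FRG day 8 libraries listed 25 (96.2%; genome 87.1%). Both Dox+FRG day 8 libraries listed 17 (65.4%; genome 47.8%), both Dox day 8 libraries 20 (76.9%; genome 77.6%) and both GFP day 10 libraries 19 (73.1%; genome 53.0%). Both quiescent satellite cell libraries listed 15 of them (57.7%; genome 41.6%) and both activated ones 16 (61.5%; genome 49.9%).

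The small molecules were compared in doxycycline cells at days 4 and 8, with 4 libraries on each side. On average fewer peaks were listed at every window with Dox+FRG than with Dox alone, and none of the differences passed after adjustment. At Actc1 Dox+FRG listed 9 peaks in each of 4 libraries against 14 to 17, a difference of -6.50 with no overlap (exact permutation test, p = 0.0286, the smallest that 4 against 4 allows, adjusted p = 0.0923). At Des the means were 11.0 ± 1.15 and 14.8 ± 0.957 (SD, n = 4), a difference of -3.75 with the same exact p and no overlap. At Ckm the difference was -3.50 (exact permutation p = 0.0857, adjusted p = 0.171) and at Acta1 -1.25 (exact permutation p = 0.143, adjusted p = 0.245). The Dox lists were longer, with 89871 to 130916 peaks against 50608 to 70877. Per 10000 listed peaks all 4 differences turned positive, at 0.06 for Actc1, 0.45 for Des, 0.59 for Ckm and 0.51 for Acta1, and none passed. At day 8, 1 region of 61 was gained with the small molecules (1.64%; genome 1.39%), Ckm region 11. Lost were 7 (11.5%; genome 28.4%), which were Acta1 region 8, Actc1 regions 4, 7 and 13, Des regions 6 and 16 and Ckm region 4. None of the 7 was among the 13 regions named above. This was fixed in advance, because both Dox+FRG day 8 libraries listed all 13. At equal list lengths the balance turned, with 8 of 53 regions gained (15.1%; genome 10.2%) and 3 lost (5.66%; genome 5.52%). Without Dox day 8 replicate 1 the 7 became 14 (23.3%, genome 49.1%), and without Dox+FRG day 8 replicate 1 they became 12 (20.3%, genome 38.6%). The 1 gained became 3 without Dox+FRG day 8 replicate 2 (5.0%, genome 4.14%). It became 2 without replicate 1 of that group (3.39%, genome 2.28%) or Dox day 8 replicate 2 (3.7%, genome 3.16%).

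Cells labelled GFP were set against unsorted Dox+FRG cells, 4 libraries of days 8 and 10 against 6 of days 4, 6 and 8, so that days differ. At Actc1 both means were 9.5 peaks (SD 1.29, n = 4, and 1.22, n = 6), a difference of 0.00. GFP libraries listed 8 and 9 at day 8 and 11 and 10 at day 10. At Des they listed 8 and 8, then 10 and 10, with a mean of 9.0 ± 1.15 (SD, n = 4) against 11.3 ± 1.21 (SD, n = 6), a difference of -2.33 (exact permutation p = 0.0333, adjusted p = 0.0923). At Ckm they listed 10 and 10, then 14 and 10 (difference -1.83, exact permutation p = 0.267, adjusted p = 0.4). At Acta1 they listed 6 and 5, then 9 and 11 (difference -0.58, exact permutation p = 0.733, adjusted p = 0.8), and this turned to 0.33 without GFP day 8 replicate 2 and to 0.00 without replicate 1. Within day 8, 1 of 48 regions was gained in GFP cells (2.08%; genome 3.58%), Acta1 region 13, which both day 0 libraries also listed. Lost were 6 (12.5%; genome 13.4%), namely Acta1 regions 16 and 18, Actc1 region 2, Des regions 12 and 20 and Ckm region 11. Of these 6, 5 belong to the 13 doxycycline regions. Both unsorted day 8 libraries, which the choice used, listed all 13, so any of them absent in both GFP libraries counts as lost. The genome's share for this overlap is not given. The GFP day 8 lists were short, at 47002 and 43467 peaks, and at equal list lengths 3 of 45 regions were gained (6.67%; genome 8.04%) and 3 lost (6.67%; genome 7.26%). Without Dox+FRG day 8 replicate 2 the 6 became 13 (28.3%, genome 32.1%), and without GFP day 8 replicate 1 they became 10 (20.8%, genome 17.7%). The 1 gained became 2 without replicate 1 of Dox+FRG day 8 (4.88%, genome 9.37%) or of GFP day 8 (4.17%, genome 6.49%).

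GFP day 10 cells differed from day 0 by 14 gained of 56 regions (25.0%; genome 18.2%) and 7 lost (12.5%; genome 21.9%). At Actc1 6 of 12 regions were gained and none lost. At equal list lengths 9 of 47 were gained (19.1%; genome 11.4%), and with regions merged from all 28 lists 8 of 49 (16.3%; genome 18.0%). Against activated satellite cells, GFP day 10 cells gained 5 of 54 (9.26%; genome 19.1%) and lost 5 (9.26%; genome 12.0%). The 5 present in GFP cells alone were Acta1 region 13, Actc1 region 3 and Des regions 10, 12 and 21. The 5 present in activated satellite cells alone were Actc1 region 17, Des region 6 and Ckm regions 3, 18 and 22. At equal list lengths 1 of 50 was gained (2.0%; genome 10.0%) and 5 were lost. The gained count was 10 without GFP day 10 replicate 2 (19.6%, genome 25.5%) and 8 without its replicate 1 (16.3%, genome 27.6%). It was 9 without activated satellite cell replicate 2 (17.6%, genome 27.2%). The lost count was 8 without activated replicate 1 (15.1%, genome 23.4%).

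Activated satellite cells gained 12 of 45 regions over quiescent ones (26.7%; genome 17.5%) and lost 2 (4.44%; genome 10.8%). Those gained were Acta1 regions 7, 10 and 18, Actc1 regions 2, 17 and 18, Des region 14 and Ckm regions 3, 7, 13, 18 and 22, and those lost Acta1 region 13 and Des region 21. Peaks at Acta1 numbered 4 and 4 in quiescent and 5 and 8 in activated cells, and at Ckm 10 and 8 against 14 and 13. At Des they overlapped, with 9 and 8 against 8 and 10. Actc1 had 5 and 0 peaks in the quiescent libraries and 8 and 9 in the activated ones. The quiescent library with 0 had a list of 37910 peaks against 57859 in replicate 1. Without that library 4 regions were lost in place of 2 (8.89%, genome 25.6%), and 4 also without activated replicate 1 (8.89%, genome 12.2%).

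The MEF10 comparison, added after the data were seen, gave 7 of 65 regions in both MyoD+FRG libraries and neither MN+FRG library (10.8%; genome 2.56%) and 3 the other way (4.62%; genome 15.2%). The 7 were Acta1 region 10, Actc1 region 3, Des regions 12, 14 and 20 and Ckm regions 3 and 13. Of these 7, 5 belong to the 13 doxycycline regions, and the genome's share for this overlap is not given. The libraries of MyoD+FRG differed from each other, with 4 and 10 peaks at Acta1, 7 and 11 at Actc1, 8 and 13 at Des and 8 and 17 at Ckm. MN+FRG listed 6 and 8, 12 and 10, 9 and 12, and 10 and 13. Without MyoD+FRG replicate 1 the 7 became 22, and without the wide-peak replicate 2 the 3 became 13. Without MN+FRG replicate 1 or 2 the 3 became 6 or 5.

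**Figure D4:**
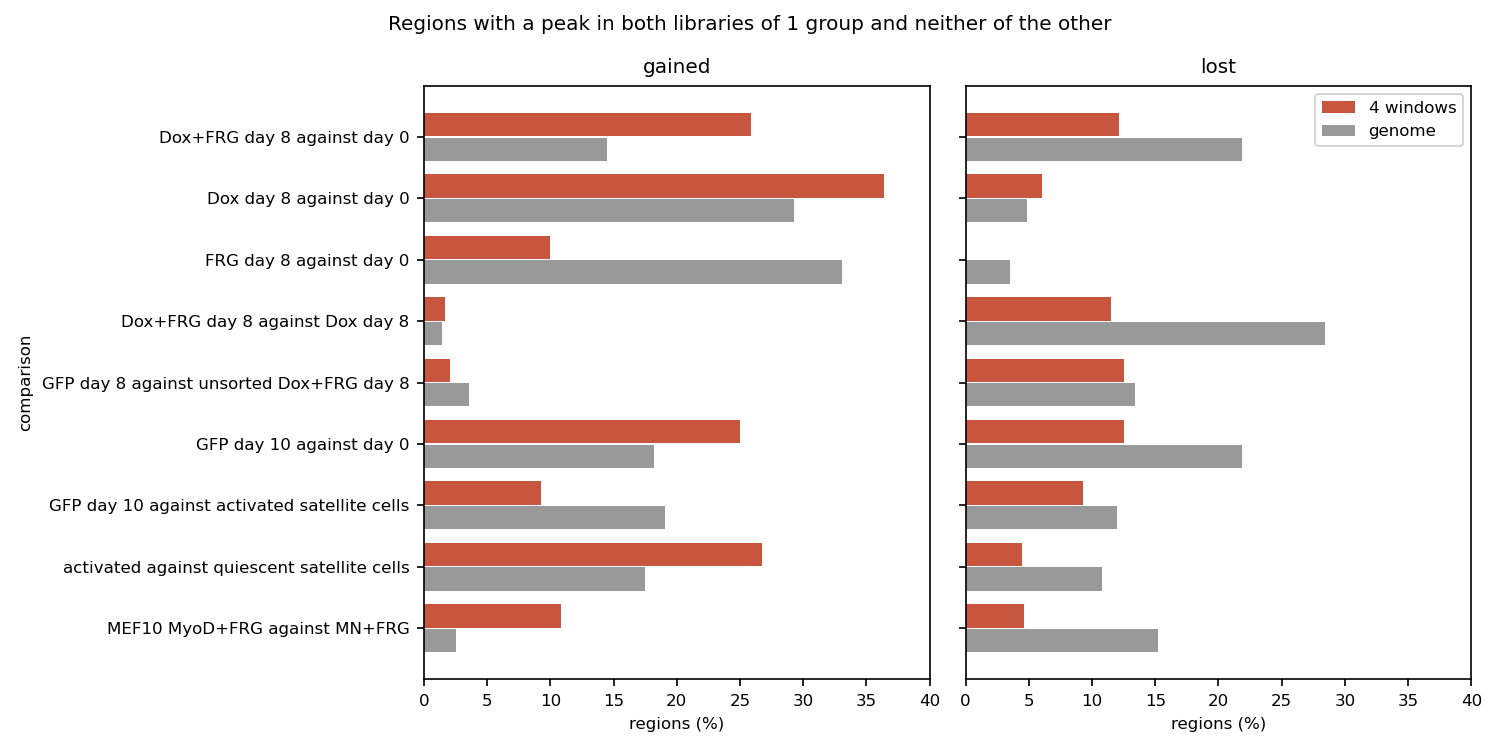
Regions gained (left) and lost (right) in 9 comparisons of 2 libraries with 2, as a percentage of regions listed in any of the 4 libraries, for the windows (orange) and the genome (grey). The loci gain more than the genome in Dox+FRG day 8 against day 0 (25.9% and 14.5%) and less in FRG day 8 against day 0 (10.0% and 33.1%).

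Likeness between the loci was counted as libraries with the same call out of 28, using the region of each window with the widest doxycycline difference. Actc1 region 1 and Des region 5 matched in 27, Actc1 region 1 and Ckm region 7 in 24, and Des region 5 and Ckm region 7 in 23. Acta1 region 12, which was less often listed with doxycycline, matched these in 2, 1 and 6. Nearest to Acta1 region 12 were Des regions 2 and 4, each in 27 libraries, and nearest to Ckm region 7 was Acta1 region 10, in 25. Identical patterns elsewhere in the genome numbered 11 for Ckm region 7. The 4 lead regions were chosen by their doxycycline difference. Their likeness over the libraries of that test, high or low, was thus largely set by the choice. The counts of likeness describe lists that share cells, batches and length, and carry no test.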

How the data were processed

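Each deposited list holds chromosome, start and end of the peaks of 1 ATAC-seq library and no other data, which the authors made with BWA and HOMER on mm9, per the submitters' processing notes. For versions, peak thresholds, read filters and a transposase shift the entry is: not given in the sources used here. Per the labels' protocols 60000 cells were used per reaction, with 13 PCR cycles. Peaks of 27 lists were merged at 1 bp of overlap, and all 28 lists were scored as present or absent in each region (Python 3.11.15, numpy 2.4.6, pandas 2.3.3, scipy 1.17.1). File starts were taken as 0-based, and printed positions are 1-based. Regions were tested by Fisher's exact test, two-sided, over all 255567 regions with Benjamini-Hochberg adjustment. Peak numbers per window were tested by exact permutation of library labels, two-sided, with adjustment over 12 tests. Calling was tested on simulated data. In each window the text names with positions the 6 regions with the largest doxycycline difference in share of libraries and those in all 28. Des region 14 was named after its values were seen, as one of the 13, and so were the regions listed as gained or lost. The members and lists were chosen with earlier results of these data known. Lists of further sarcomere genes and cell type markers were not used, for want of an mm9 annotation here. Replicate numbers were shared between groups but did not pair the libraries. Alternatives were the region merging, overlap, list length, peak extension, the control group, the unit, the filter, a replicate block and each library left out.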

Additional observations from a re-analysis of the deposited data

Results flagged for a closer look

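At Acta1 the day 8 doxycycline libraries without and with FRG moved in opposite directions against their own controls. Dox day 8 libraries listed 10 and 10 peaks against 9 and 9 at day 0, a difference of 1.00. Dox+FRG day 8 libraries listed 8 and 8 against 12 and 15 in FRG day 8, a difference of -5.50. The contrasts differ in day 0 against day 8 controls and in FRG, and the difference between them was not tested. Per 10000 listed peaks both directions turned, with means of 0.842 in Dox day 8 and 1.3 at day 0, and of 1.39 in Dox+FRG day 8 and 1.01 in FRG day 8. The FRG day 8 lists held 134997 and 133267 peaks and the Dox+FRG day 8 lists 67026 and 50608.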

How the results depend on the processing

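The lists give no depth, so small differences in peak numbers between long and short lists cannot be read as chromatin differences. At the loci 3 regions were higher and 2 lower with doxycycline at an adjusted p of 0.0425. Both counts were 0 with equal list lengths (a random draw of 37301 peaks per list), with extended peaks, with day 0 alone or FRG day 8 alone as control, and with a replicate block (replicate number as stratum, smallest p 0.00128). In each of these settings no region of the genome passed either, so the counts of 0 are not particular to the loci. The pairing check gave correlations of -0.01 to 0.11, so the replicate block is not a paired design. Merging all 28 lists gave 1 higher and 2 lower (977 and 2136 genome-wide). The filter to 3 to 14 libraries, added later, gave 3 higher and 4 lower (2210 and 4184 genome-wide). With single libraries left out the counts ran from 0 to 3 in either direction. Against FRG day 8 alone the peak differences became -0.67 at Des and -0.25 at Ckm, and Actc1 region 5 went to -8.33 percentage points. With extended peaks they became -0.42 at Des and -0.75 at Ckm, and 2.00 at Actc1.

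Per 10000 listed peaks the doxycycline differences passed at Actc1 (1.00), Des (0.55) and Ckm (0.65), while Dox+FRG minus Dox became 0.51, 0.06, 0.45 and 0.59 at Acta1, Actc1, Des and Ckm, and GFP minus unsorted became 0.03 at Acta1. At equal list lengths Actc1 gave 3.83 (exact permutation test, adjusted p = 0.0462), while Des (2.83) and Ckm (2.50) did not pass (same test, adjusted p = 0.253 for each). In that setting Dox+FRG minus Dox became 2.00, 1.25 and 2.50 at Acta1, Des and Ckm, and GFP minus unsorted 1.00 at Ckm. Extended peaks gave 0.08 for the latter. Covered length gave doxycycline differences of 2.63 kb at Actc1, which passed, and of 0.40 kb at Des and 0.71 kb at Ckm, which did not. With unsorted days 2 to 8, GFP minus unsorted was 0.38 at Acta1, and with libraries left out it ran from -1.67 to 0.33. The Actc1 doxycycline difference ran from 5.95 to 7.33.

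At equal list lengths, the gained regions that moved by over 1.5 times numbered 9 in Dox+FRG day 8 against day 0 (18.0%; genome 10.8%), 5 in Dox day 8 against day 0 (9.8%; genome 5.88%), 1 in FRG day 8 against day 0 (2.78%; genome 5.35%), 8 in Dox+FRG against Dox day 8 (15.1%; genome 10.2%), 3 in GFP against unsorted day 8 (6.67%; genome 8.04%), 9 in GFP day 10 against day 0 (19.1%; genome 11.4%) and 1 in GFP day 10 against activated cells (2.0%; genome 10.0%). Lost regions numbered 3 in Dox+FRG day 8 against day 0 (6.0%; genome 10.1%), 4 in FRG day 8 against day 0 (11.1%; genome 9.74%), 3 in Dox+FRG against Dox day 8 (5.66%; genome 5.52%) and 3 in GFP against unsorted day 8 (6.67%; genome 7.26%). With extended peaks, the gained regions that moved by over 1.5 times numbered 0 in Dox+FRG day 8 against day 0 (0%; genome 8.83%), 12 in Dox day 8 against day 0 (42.9%; genome 36.4%), 0 in Dox+FRG against Dox day 8 (0%; genome 0.777%), 0 in GFP against unsorted day 8 (0%; genome 3.55%), 2 in GFP day 10 against day 0 (18.2%; genome 11.8%), 1 in activated against quiescent cells (12.5%; genome 10.7%) and 1 in MEF10 (2.94%; genome 1.04%). In that setting GFP day 10 against activated cells gained 1 region (12.5%), a smaller share than the genome's (1536 regions). Lost regions numbered 1 in Dox+FRG day 8 against day 0 (6.25%; genome 20.4%), 1 in Dox day 8 against day 0 (3.57%; genome 2.55%), 1 in FRG day 8 against day 0 (4.55%; genome 0.801%), 0 in GFP against unsorted day 8 (0%; genome 10.9%), 1 in GFP day 10 against day 0 (9.09%; genome 21.0%), 1 in GFP day 10 against activated cells (12.5%; genome 9.78%), 0 in activated against quiescent cells (0%; genome 10.9%) and 0 in MEF10 (0%; genome 2.76%). Merging all 28 lists gave 8 in GFP day 10 against day 0 (16.3%; genome 18.0%) as gained and 3 in GFP day 10 against activated cells (6.12%; genome 11.7%) as lost.

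With single libraries left out, gained regions ran from 7 to 11 (FRG day 8 against day 0), 1 to 3 (Dox+FRG against Dox), 1 to 2 (GFP against unsorted), 6 to 10 (GFP day 10 against activated cells) and 7 to 22 (MEF10). Lost regions ran from 5 to 7 (Dox day 8 against day 0), 0 to 1 (FRG day 8 against day 0), 8 to 14 (Dox+FRG against Dox), 6 to 13 (GFP against unsorted), 5 to 8 (GFP day 10 against activated cells), 2 to 4 (activated against quiescent) and 3 to 13 (MEF10). With 1 library fewer the rule for gained or lost is looser, so these counts, like the genome's, can only stay or rise. The cause of the other shifts was not tested.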
